A study of Homo sapiens with 10 samples.

Results

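The genes described here are the histone genes whose RNA was counted in the scRNA-Seq libraries of HCT-116 cells, an established human colon carcinoma line that the labels give as wild type. Members were taken by name. They are the genes whose symbol begins with HIST1H, HIST2H, HIST3H or HIST4H, called replication-dependent histone genes here, and H1F0, H1FX, H2AFX, H2AFY, H2AFZ, H2AFV, H3F3A and H3F3B, called replacement histone genes. A member also had at least 20 unique molecular identifiers (UMIs, each counting 1 captured RNA molecule) summed over 4 libraries. Of 32738 genes in the count tables, 79 matched by symbol and 54 were members, 46 of them replication-dependent and 8 replacement. Of the 25 genes under the limit, 9 had no UMI. HIST1H4I with 39 UMIs and HIST1H1T with 62 UMIs lay just inside the limit, and HIST1H2AD with 18 and HIST1H2AA with 14 lay just outside it.

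Untreated cells gave libraries 1 and 2, called untreated 1 and untreated 2. DOX-treated cells gave the libraries DOX 1 and DOX 2: they received 200 nM doxorubicin (DOX, an anthracycline that damages DNA) over 24 h and were sequenced after 6 d without the drug. The sources do not say whether libraries of a condition came from separate cultures, so every p-value below measures only the spread between these libraries. The comparison uses barcodes, each standing for 1 droplet, with at least 20000 UMIs and less than 8% of UMIs from mitochondrial genes.

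Histones package DNA: H2A, H2B, H3 and H4 form the core of the nucleosome, and H1, the linker histone, binds where DNA enters and leaves it. Replication-dependent histone genes are made in large amounts while DNA is copied in S phase, and their RNA usually ends at a stem-loop bound by SLBP, without a poly(A) tail. Replacement histones are made throughout the cell cycle from ordinary polyadenylated RNA. A subset of the replication-dependent genes can also give polyadenylated RNA from signals downstream of the stem-loop, which is known from differentiated and resting cells. The libraries were made with a kit that primes on runs of A, so the UMIs count RNA with a poly(A) tail or an inner run of A, and not the main stem-loop RNA as a whole.

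The stem-loop was present in the genome behind nearly every replication-dependent member, so its letters are shown first. The reference annotation (GENCODE 44 on GRCh37, the build hg19 the files use) matched 45 of the 46 genes, 28 by Ensembl identifier and 17 by an older symbol, and HIST1H2BF was not matched. A pattern of 16 bases was searched on the sense strand in the 200 bases after the stop codon: GG, 3 bases of any kind, T, 2 of any kind, T, 1 of any kind, A, 3 of any kind and CC. It was found behind 45 of 45 matched replication-dependent genes, 26 to 71 bases (median 40) after the stop codon, and behind 1 of 8 replacement genes, H2AFX. Over all 20176 protein-coding genes searched the same way, 1.37% held it. A stricter form, a subset of the first with TTTT in the place of its T, 2 free bases and T, was found behind 44 of the 45 and behind 0.416% of all genes. In 23 members the 16 bases were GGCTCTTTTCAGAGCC, in 8 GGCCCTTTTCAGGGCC and in 7 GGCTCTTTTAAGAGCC. The sites below belong to the members on which the results turn. Capitals mark the 16 bases of the pattern, to which the coordinates refer, with 5 bases on either side, all written 5′ to 3′ on the gene's strand.
HIST1H4C, chr6:26104545-26104560, plus strand: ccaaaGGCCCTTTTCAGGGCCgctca
HIST1H1E, chr6:26157323-26157338, plus strand: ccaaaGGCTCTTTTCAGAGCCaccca
HIST1H1C, chr6:26055972-26055987, minus strand: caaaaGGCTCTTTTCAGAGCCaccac
HIST1H2BM, chr6:27783247-27783262, plus strand: ccaaaGGCTCTTTTCAGAGCCgtcca
HIST1H2BD, chr6:26158815-26158830, plus strand: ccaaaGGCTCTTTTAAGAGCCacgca
HIST1H2AC, chr6:26124897-26124912, plus strand: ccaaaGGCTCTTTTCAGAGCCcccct
HIST1H2BK, chr6:27114145-27114160, minus strand: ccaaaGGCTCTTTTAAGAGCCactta
HIST1H2BJ, chr6:27100100-27100115, minus strand: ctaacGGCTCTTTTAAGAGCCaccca
HIST2H2AA3, chr1:149813790-149813805, minus strand: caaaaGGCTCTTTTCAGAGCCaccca
HIST2H2BE, chr1:149857738-149857753, minus strand: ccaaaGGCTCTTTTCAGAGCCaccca
H2AFX, chr11:118965608-118965623, minus strand: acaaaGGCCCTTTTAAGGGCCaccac

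The count tables held 4701 and 2528 untreated barcodes and 8000 barcodes in each DOX library, of which 3572 and 2137 untreated and 1307 and 1080 DOX barcodes were retained. Retained barcodes had medians of 72676 to 84830 UMIs and summed to between 102333220 and 291488794 UMIs per library. Of the 8 colon epithelial markers, KRT8, KRT18, KRT19 and EPCAM were at 299 to 2038 CPM (UMI counts scaled to the same total in every library) in every library, while LGALS4 and VIL1 were at 1.27 CPM or less. The 6 leukocyte markers summed to 0.151 to 1.03 CPM and the fibroblast and endothelial markers to 3.09 to 6.04 CPM, and both sums were higher with DOX. Their part in the results was not tested. CDKN1A, the p53 target that halts the cycle, stood at 29.1 and 29.3 CPM in untreated and 281 and 240 CPM in DOX libraries (log2 fold change 2.99 ± 0.09 SE, edgeR adjusted p = 1.8e-07), and all 10 p53 response genes rose. A total of 57 barcode sequences occurred in more than 1 library.

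In the retained barcodes most histone genes were lower after DOX, and a small group of replication-dependent H2A and H2B genes was higher. These barcodes were 76.0% and 84.5% of untreated but only 16.3% and 13.5% of DOX barcodes, so most DOX barcodes are not described. Of the 46 replication-dependent genes, all of which passed the filter on low counts, 27 were called lower, 5 higher and 14 neither (edgeR quasi-likelihood test, adjusted p below 0.05 over 21563 genes, 2 libraries against 2). Over all genes tested, 26.4% were called lower and 28.2% higher, 54.6% in either direction. The median log2 fold change was -0.52 over the replication-dependent genes, -0.43 over the replacement genes and 0.04 over all genes tested. Among the 8 replacement genes 6 were called lower and 1 higher, H1F0. These fold changes rest on TMM scaling, which sets the bulk of genes at no change. Without it the median of all genes lay 0.17 higher on the log2 scale, and the counts were 23 lower and 5 higher for replication-dependent and 5 lower and 1 higher for replacement genes.

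**Figure D1:**
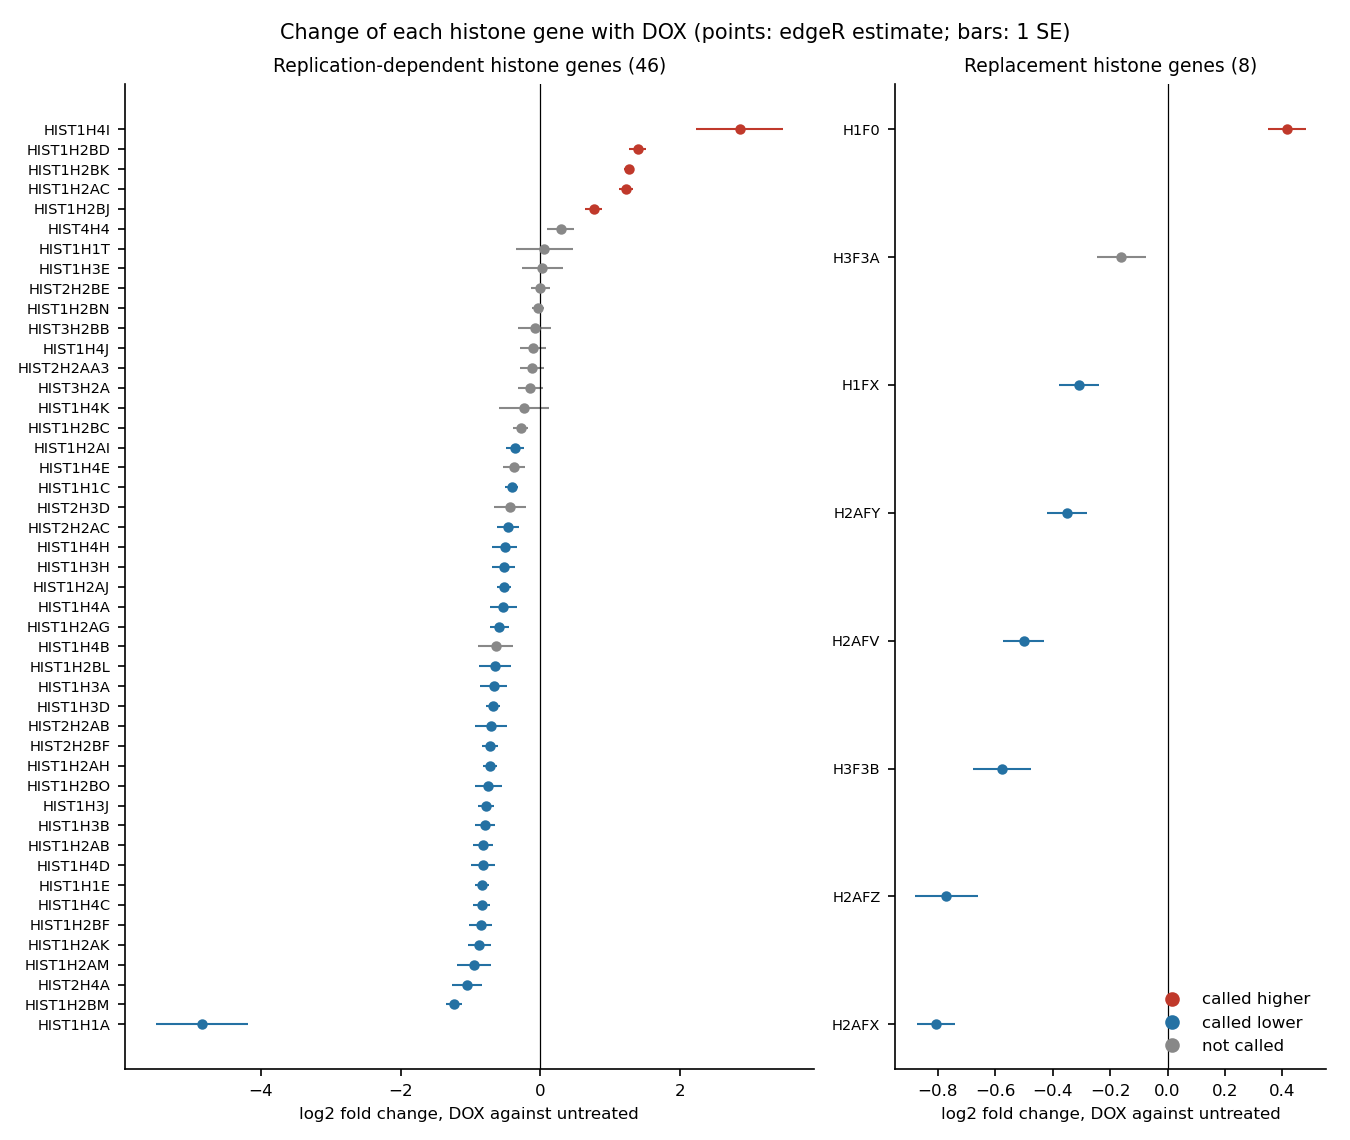
The log2 fold change of DOX against untreated libraries (horizontal axis) for each of the 46 replication-dependent genes (left) and 8 replacement genes (right), with bars of 1 SE and 2 libraries a condition. In red are genes called higher, in blue genes called lower and in grey genes not called; 27 and 6 genes are blue, and the 5 red replication-dependent genes are HIST1H4I, HIST1H2BD, HIST1H2BK, HIST1H2AC and HIST1H2BJ.

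HIST1H4C, a gene for the core histone H4, gave 78.7% and 77.9% of all replication-dependent UMIs in untreated libraries and 70.8% and 72.2% in DOX libraries. Its level, as TMM-scaled CPM here and for every value beside a fold change of this comparison, was 1633 in untreated 1, 1997 in untreated 2, 934 in DOX 1 and 1089.8 in DOX 2. Both DOX libraries lay below both untreated libraries, as they did on this scale for 36.6% of all genes tested (41.8% lay above), and the log2 fold change was -0.84 ± 0.12 SE (adjusted p = 0.00039), or 0.558-fold. In the reference annotation the gene lies inside a long form of HIST1H2BC on the opposite strand, and whether the counting used strand is not given in the sources used here. To see how the level was spread over cells, each barcode was thinned to 20000 UMIs, which none of the retained barcodes fell below. The median barcode then held 20 and 24 UMIs of HIST1H4C in untreated libraries and 7 and 8 in DOX libraries, the 10th percentile was 2 and 3 against 0 and 1, and the 90th percentile was 66 and 90 against 60 and 67. As a ratio, the median differed more between conditions than the 90th percentile did, whose untreated 1 and DOX 2 values were nearly equal.

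Among linker histones 3 of the 4 replication-dependent genes were called lower, where 26.4% of all genes tested were, and H1F0 rose. Of the 3, HIST1H1A passed the filter on low counts through the untreated libraries alone, so its call follows in part from the filter. HIST1H1E, which codes for H1.4, stood at 59.9 and 74.3 in untreated and 35.0 and 40.1 in DOX libraries (log2 fold change -0.84 ± 0.11 SE, adjusted p = 0.00022). Its conditions did not overlap, and 36.6% of all genes tested likewise had both DOX libraries below both untreated ones on this scale. HIST1H1C, the gene for H1.2, stood at 119 and 143 in untreated and 96.4 and 101 in DOX libraries (log2 fold change -0.41 ± 0.09 SE, adjusted p = 0.0042). The libraries of HIST1H1C did not overlap either, although the gap between conditions was smaller than the gap between the untreated libraries. HIST1H1A, which codes for H1.1, had 64 UMIs in each untreated library, 2 in DOX 1 and 0 in DOX 2, where a count of 0 allows up to 0.0293 CPM (3 UMIs). Over both libraries of a condition the ratio of its CPM was 0.0372 (95% exact interval for counting error 0.00446 to 0.137), and the edgeR adjusted p was 0.00034. Its UMIs lay in 1.04% and 0.98% of the untreated barcodes, and the interval takes each UMI as independent of the others. The testis-specific HIST1H1T had 18 UMIs in each untreated and 9 in each DOX library and was not called.

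H1F0, the gene for the linker histone H1.0 that accumulates in resting and differentiated cells, stood at 92.1 and 84.5 in untreated and 115 and 120.2 in DOX libraries. The DOX libraries both lay above the untreated ones, as they did on this scale for 41.8% of all genes tested. The log2 fold change was 0.42 ± 0.07 SE (adjusted p = 0.00084). H1F0 gave 24.0% and 20.9% of the UMIs of the 8 listed linker histone genes in untreated libraries and 34.6% and 34.5% in DOX libraries; an exact permutation test with 2 libraries against 2 cannot go below p = 0.33. H1FX, which codes for H1.10, went the other way, from 113 and 102 to 87.0 and 87.0 (log2 fold change -0.31 ± 0.07 SE, adjusted p = 0.0048), and this call was lost without TMM scaling (-0.14, adjusted p = 0.11).

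All 4 replacement H2A genes were called lower, where 26.4% of all genes tested were. H2AFX, the gene for H2A.X, which is phosphorylated beside DNA breaks, stood at 145 and 136 in untreated and 82.7 and 77.9 in DOX libraries (log2 fold change -0.81 ± 0.07 SE, adjusted p = 2.6e-05). H2AFZ, one of the genes for H2A.Z, a variant placed at promoters, stood at 2328 and 1866 in untreated and 1237 and 1222 in DOX libraries (log2 fold change -0.77 ± 0.11 SE, adjusted p = 0.00045). Thinned to 20000 UMIs, the median barcode held 42 and 36 UMIs of H2AFZ against 30 and 29 with DOX, and the 10th percentile was 27 and 24 against 3 and 3, so the low end of the DOX barcodes lay far below that of the untreated ones. H2AFV, the other H2A.Z gene, fell by 0.50 ± 0.07 SE and H2AFY, which codes for macroH2A1, a variant of silent chromatin, fell by 0.35 ± 0.07 SE on the log2 scale (adjusted p = 0.00041 and 0.0027).

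The genes H3F3A and H3F3B both code for H3.3, the replacement form of H3. H3F3B stood at 1894 and 1578 in untreated and 1174 and 1154 in DOX libraries (log2 fold change -0.58 ± 0.10 SE, adjusted p = 0.0013). H3F3A stood at 835 and 735 in untreated and 709 and 695 in DOX libraries and was not called (log2 fold change -0.16 ± 0.09 SE, adjusted p = 0.14). Its median barcode, thinned to 20000 UMIs, held 15 and 14 UMIs in untreated and 15 and 15 in DOX libraries.

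Core histone genes of the replication-dependent class were called lower in each type, most often among H2A and H3 genes. Over all genes tested, 26.4% were called lower and 28.2% higher. Of 12 H2A genes 9 were called lower and 1 higher. Of 12 H2B genes 5 were called lower and 3 higher, a share called higher near that of all genes. Of 7 H3 genes 5 were called lower and none higher. Of 11 H4 genes 5 were called lower and 1 higher (HIST1H4I, which passed the filter on low counts through the DOX libraries alone). Among all these core histone genes the largest fall was in HIST1H2BM. It stood at 3.24 and 3.58 in untreated and 1.41 and 1.49 in DOX libraries (log2 fold change -1.24 ± 0.11 SE, adjusted p = 4.3e-05). HIST2H4A (-1.05 ± 0.21 SE), HIST1H2AM (-0.95 ± 0.24 SE) and HIST1H2AK (-0.88 ± 0.17 SE) followed, with adjusted p of 0.0031, 0.0093 and 0.0021. HIST1H2AM, whose annotation overlaps HIST1H3J on the same strand, differed widely between untreated replicates, with 17.1 in untreated 1 and 30.9 in untreated 2 against 10.5 and 14.2 with DOX.

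Of the other H2A and H3 genes with many UMIs, HIST1H2AH fell from 24.8 and 30.4 to 15.5 and 18.0 (log2 fold change -0.72 ± 0.10 SE) and HIST1H2AG from 13.3 and 17.8 to 9.35 and 11.3 (-0.59 ± 0.14 SE), with adjusted p of 0.00048 and 0.0061. HIST1H3D fell from 17.4 and 20.6 to 10.9 and 12.8 (-0.68 ± 0.10 SE), and HIST1H3B from 13.5 and 18.7 to 8.76 and 9.82 (-0.79 ± 0.14 SE), with adjusted p of 0.00053 and 0.0013. In these 4 genes the DOX values lay below the untreated values, as they did on this scale for 36.6% of all genes tested. HIST2H2AC stood at 49.96 and 70.7 in untreated and 37.8 and 49.6 in DOX libraries (-0.46 ± 0.16 SE, adjusted p = 0.037), so the highest DOX library came close to the lowest untreated one. The value was -0.20 without untreated 2 (adjusted p = 0.24), -0.71 without untreated 1 and -0.30 without DOX 1 (adjusted p = 0.089), and DESeq2 did not call it (adjusted p = 0.18). HIST1H2BC stood at 10.8 and 13.8 against 9.80 and 10.5 and was not called (-0.28 ± 0.11 SE, adjusted p = 0.055). The other replication-dependent genes called lower had log2 fold changes between -0.86 (HIST1H2BF) and -0.36 (HIST1H2AI), and the 14 genes not called had values between -0.64 (HIST1H4B) and 0.29 (HIST4H4).

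A smaller set of core histone genes rose. HIST1H2BD, an H2B gene, stood at 6.14 and 7.91 in untreated and 19.7 and 17.1 in DOX libraries (log2 fold change 1.39 ± 0.12 SE, adjusted p = 3e-05). HIST1H2BK stood at 13.5 and 14.4 against 35.7 and 31.7 (1.27 ± 0.07 SE, adjusted p = 4.9e-06), and HIST1H2AC, an H2A gene, at 11.6 and 14.6 against 29.9 and 31.3 (1.23 ± 0.10 SE, adjusted p = 2.5e-05). HIST1H2BJ stood at 2.52 and 2.92 against 5.03 and 4.16 (0.76 ± 0.12 SE, adjusted p = 0.00074). In all 4 the DOX libraries lay above the untreated ones by more than replicates differed. Of all genes tested, 41.8% had both DOX libraries above both untreated ones on this scale. HIST1H4I, an H4 gene, was called higher too, but on 4 and 1 UMIs against 7 and 11: the ratio of CPM was 8.57 (95% exact interval for counting error 3.07 to 29.5), and without untreated 2 the call was lost (log2 fold change 2.39, adjusted p = 0.062). HIST1H4I passed the filter on low counts through the DOX libraries alone and HIST1H1A through the untreated libraries alone, so their calls follow in part from the filter. Without both, 4 of 44 replication-dependent genes were called higher and 26 lower, with a median log2 fold change of -0.52. Replication-dependent genes are near copies of each other in their coding parts, so which copy a UMI came from is uncertain. HIST2H2AA3 had 1897 UMIs over all barcodes and its duplicate HIST2H2AA4 had 1.

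**Figure D2:**
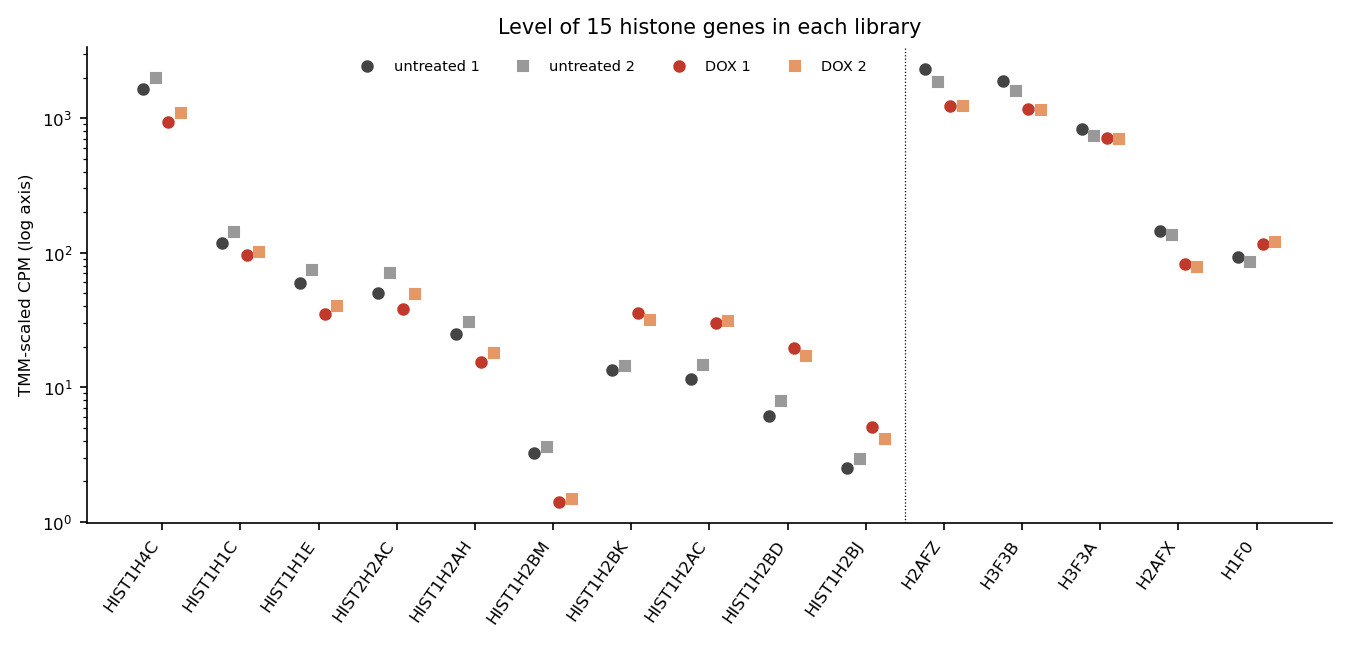
TMM-scaled CPM on a log axis for 15 histone genes in each library, with untreated libraries in grey and DOX libraries in red and orange; replacement genes are right of the dotted line. For HIST1H4C to HIST1H2BM the DOX points lie below the untreated points, for HIST1H2BK, HIST1H2AC, HIST1H2BD and HIST1H2BJ above them, and of the replacement genes H1F0 alone lies above; levels are not to be compared between genes, because RNA length was not taken into account.

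The summed replication-dependent level differed between the libraries of one condition. It was 1892 CPM (without TMM scaling) in untreated 1 and 2503 in untreated 2, against 1391 and 1608 in the DOX libraries, and it was higher in untreated 2 than in untreated 1 for 45 of 46 genes and in DOX 2 than in DOX 1 for 36 of 46. The replacement genes summed to 5338 and 4794 CPM untreated and 3928 and 3915 CPM with DOX, with 1 of 8 higher in untreated 2 than in untreated 1 and 3 of 8 higher in DOX 2 than in DOX 1. Without HIST1H4C the replication-dependent sum was 403 and 553 CPM untreated and 406 and 447 CPM with DOX, which overlap. Leaving out untreated 2 left 19 replication-dependent genes called lower, against 29 without untreated 1.

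The genes that act on histone RNA and histone protein also moved. Of 18 measured genes for 3′ end formation and decay of histone mRNA, 14 were called lower and 1 higher, with a median log2 fold change of -0.42. The background for these lists was 26.4% lower and 28.2% higher of 21563 genes. SLBP, which binds the stem-loop, stood at 191 and 182 CPM untreated and 120 and 130 CPM with DOX (-0.75 ± 0.08 SE, adjusted p = 7.9e-05), and SRRT (-0.77 ± 0.06 SE), CSTF2 (-0.86 ± 0.07 SE) and ERI1, an exonuclease that trims histone mRNA (-0.62 ± 0.06 SE), fell with adjusted p of 2.1e-05, 2.7e-05 and 4.8e-05. The gene called higher was ZCCHC6 (0.22 ± 0.06 SE, adjusted p = 0.011), which codes for a terminal uridylyl transferase. All of the 10 chaperones that hand histones to newly copied DNA fell (median -0.76), among them MCM2, TONSL, CHAF1B and ASF1B at -0.84, -0.77, -0.82 and -0.73. Of 17 genes for histone exchange outside replication 13 were called lower and none higher (median -0.39), led by HJURP, the chaperone of the centromere histone, ANP32E, DEK and YEATS4 at -0.85, -0.72, -0.58 and -0.44.

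Of 8 chaperones of H2A and H2B, 7 were called lower (median -0.69), with SSRP1, NCL, SUPT16H and SET at -0.73, -0.84, -0.70 and -0.67. Of 11 measured histone variants outside the membership rule 4 passed the filter: CENPA, the centromere H3, fell by 0.81 ± 0.08 SE, H2AFY2 fell by 0.56 ± 0.07 SE, H2AFJ rose by 0.23 ± 0.06 SE on the log2 scale, and H3F3C was not called (-0.88 ± 0.34 SE, adjusted p = 0.055). Within the list of 8 linker histone genes 6 were tested, with 4 lower, HIST1H1A among them, and 1 higher. Each list was chosen with results of these data known, so these counts describe it and do not test it. SLBP, MCM2, CHAF1B and NASP are also in the S phase list below, and HJURP, ANP32E and CENPA in the G2/M list. Their falls are counted again there.

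S phase genes moved in the same direction as most of the replication-dependent genes. The share called lower over all genes tested was 26.4%. All 40 tested S phase genes, none of them a histone, were called lower (median log2 fold change -0.79), with MCM2, CLSPN, E2F8 and CCNE2 at -0.84, -0.88, -0.93 and -0.87, and so were all 53 G2/M genes (median -0.82), with BUB1, AURKA, TACC3 and KIF23 at -1.03, -1.02, -1.01 and -0.96. To compare histone genes at a like S phase level, barcodes were put into ranges by their summed CPM of the 40 S phase genes: S-low below 3632 CPM, S-high from 4566 CPM, and S-mid between them. The bounds are means of the untreated libraries' own tertile bounds, and these are ranges of a score and not cell cycle phases. S-low held 34.8% and 32.0% of untreated and 66.6% and 61.9% of DOX barcodes, and S-high held 31.9% and 34.8% of untreated and 15.2% and 18.1% of DOX barcodes. Within 5% of a bound lay 29.5% and 28.3% of untreated and 15.4% and 17.9% of DOX barcodes.

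Replication-dependent genes followed the S phase score closely, and replacement genes did so weakly. In S-high against S-low barcodes, with the library as a block and 8 sums in the fit, 37 of 44 tested replication-dependent genes were called higher and 1 lower, where 25.2% of all genes were called higher and 26.4% lower, 51.6% in either direction. The median log2 difference was 1.59 over the replication-dependent genes, 0.06 over the replacement genes and -0.03 over all genes. HIST1H2BM rose most of the named genes (2.75 ± 0.12 SE), HIST1H1E rose by 1.89 ± 0.05 SE, HIST1H1C by 1.71 ± 0.03 SE and HIST1H4C by 1.29 ± 0.04 SE, with adjusted p between 1.5e-19 and 3e-13. HIST1H2BK was the gene called lower (-0.48 ± 0.06 SE, adjusted p = 5.8e-07), HIST1H2BD was not called (-0.07 ± 0.06 SE, adjusted p = 0.37), and HIST1H2AC rose by 0.30 ± 0.05 SE (adjusted p = 1.4e-05). Of the replacement genes H2AFZ rose by 0.46 ± 0.03 SE, H2AFV by 0.19 ± 0.03 SE, H3F3B by 0.10 ± 0.03 SE and H2AFY by 0.07 ± 0.03 SE, while H1F0 fell by 0.21 ± 0.03 SE and H1FX fell by 0.18 ± 0.03 SE. The ranges were set on S phase genes of these same barcodes, so the size of the split follows from the bounds.

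**Figure D3:**
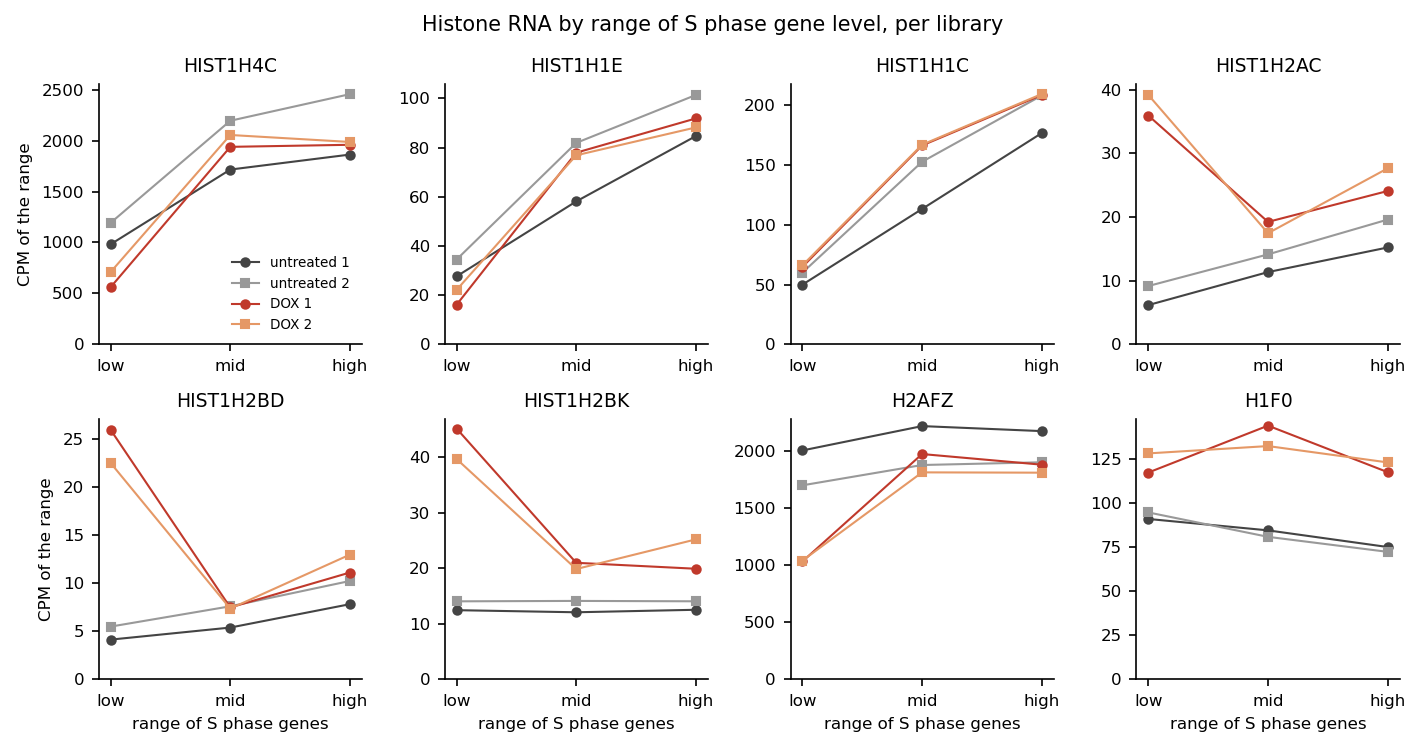
CPM (vertical axes, from 0) of 8 histone genes summed over the S-low, S-mid and S-high barcodes of each library, untreated in grey and DOX in red and orange. HIST1H4C, HIST1H1E and HIST1H1C are higher in S-high than in S-low barcodes of every library, whereas HIST1H2AC, HIST1H2BD and HIST1H2BK are highest in the S-low barcodes of the DOX libraries, at 22.5 to 45.2 CPM.

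In S-low barcodes most of the histone genes that were called were again lower after DOX. Of 43 replication-dependent genes tested there, 17 were called lower and 6 higher (background 27.8% lower and 28.9% higher of 19623 genes), and of the 8 replacement genes 7 were lower and 1 was higher. Without DOX 1 the replication-dependent counts were 11 lower and 7 higher, without DOX 2 24 lower and 6 higher, and without TMM scaling 14 lower and 10 higher. The replacement gene called higher, H1F0 (0.22, adjusted p = 0.026), was not called without either DOX library. HIST1H1A, HIST1H1T and HIST1H4I had too few UMIs to be tested in this range. HIST1H4C stood at 982 and 1193 CPM in untreated and 561 and 709 CPM in DOX libraries (log2 fold change -0.95 ± 0.12 SE, adjusted p = 7.6e-05). HIST1H1E fell by 0.88 and H2AFX fell by 1.13 on the log2 scale, with adjusted p of 0.0002 and 9e-07. HIST1H1C stood at 49.9 and 60.0 CPM against 64.8 and 66.1 CPM and was not called (0.08, adjusted p = 0.39).

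The H2A and H2B genes called higher in all barcodes had larger fold changes in the S-low barcodes among them. HIST1H2BD stood at 4.11 and 5.46 CPM in untreated and 25.9 and 22.5 CPM in DOX libraries (log2 fold change 2.18, adjusted p = 3.2e-07), and HIST1H2AC at 6.16 and 9.15 CPM against 35.9 and 39.2 CPM (2.14, adjusted p = 5.4e-07). HIST1H2BK stood at 12.4 and 14.0 CPM against 45.2 and 39.7 CPM (1.50, adjusted p = 4.4e-07), and HIST1H2BJ at 1.58 and 1.60 CPM against 5.81 and 4.20 CPM (1.47, adjusted p = 4.6e-05). HIST2H2AA3 (0.82) and HIST2H2BE (0.76), which were not called in all barcodes, were called higher here with adjusted p of 0.0045 and 0.0017. In the first 4 genes both DOX libraries lay above both untreated ones, as they did for 53.6% of all genes tested in this range. The S-low range did not hold like barcodes in both conditions: the median G2/M sum in it was 8486 and 8762 CPM untreated and 2566 and 2851 CPM with DOX, and the median S phase sum 3131 and 3141 against 1822 and 1876 CPM. Their part in the histone result was not tested.

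A narrower set, chosen after these values were seen, held the S-low barcodes that were also below 6471 CPM in G2/M genes, which were 260 and 139 untreated and 600 and 453 DOX barcodes. There 23 of 40 replication-dependent genes were called lower and 4 higher (background 22.7% lower and 20.5% higher of 18110 genes). The 4 were HIST1H2BD (1.84), HIST1H2AC (1.51), HIST1H2BJ (1.45) and HIST1H2BK (1.01), which were also called higher in all barcodes. The narrower set is a part of those same barcodes, so this is not a separate test. HIST1H4C stood at 1332 and 1856 CPM untreated against 435 and 560 CPM with DOX (-1.84 ± 0.15 SE, adjusted p = 5.1e-06), and HIST1H1C fell by 0.57 (adjusted p = 0.0045). H1F0 was not called in this set (0.07, adjusted p = 0.54). The median G2/M sum still differed, at 4825 and 4684 against 1105 and 1164 CPM.

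At a high or middle S phase level few replication-dependent genes were called lower. In S-high barcodes, where the median S phase sum was 5118 and 5101 CPM untreated and 5125 and 5036 CPM with DOX, 2 of 44 replication-dependent genes were called lower and 4 higher (background 15.2% lower and 11.8% higher of 17343 genes), with a median log2 fold change of -0.03. Without untreated 1 the counts were 9 lower and 3 higher, without untreated 2 0 lower and 7 higher, without DOX 2 2 lower and 2 higher, without TMM scaling 1 lower and 5 higher, and DESeq2 called 0 lower and 3 higher, so these counts rest on single libraries. The 2 called lower were HIST1H2BM (-0.40, adjusted p = 0.0496) and HIST1H1A, which passed the filter through the untreated libraries alone. The 4 called higher were HIST1H2BK (0.68, adjusted p = 0.00017), HIST1H2BJ (0.64, adjusted p = 0.0082), HIST1H2AC (0.49, adjusted p = 0.0028) and HIST1H2AI (0.48, adjusted p = 0.037). HIST1H4C stood at 1863 and 2457 CPM untreated and 1960 and 1987 CPM with DOX, so the DOX libraries lay between the untreated ones (-0.22 ± 0.10 SE, adjusted p = 0.11). H1F0 rose in this range from 74.9 and 72.2 to 117 and 123 CPM (0.61 ± 0.07 SE, adjusted p = 1.2e-05), while H3F3B fell by 0.39 and H2AFX fell by 0.34 (adjusted p = 0.003 and 0.0025).

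In S-mid barcodes, examined after the other ranges, 8 of 42 replication-dependent genes were called higher and 0 lower, with a median log2 fold change of 0.29 (background 9.66% lower and 10.1% higher of 17365 genes). This count of 0 comes from edgeR, the one tool run on this range, and at an unadjusted p below 0.05 it was 1, HIST1H2BM. HIST1H4C stood at 1716 and 2196 CPM untreated and 1939 and 2056 CPM with DOX (-0.01 ± 0.11 SE, adjusted p = 0.97). Among the 8 were HIST1H2BK (0.60), HIST2H2AC (0.57), HIST1H2AJ (0.51) and HIST1H2AC (0.49), and H1F0 rose by 0.70 ± 0.09 SE. HIST1H2BD stood at 5.36 and 7.57 CPM against 7.45 and 7.34 CPM there and was not called (0.17, adjusted p = 0.47). The S-mid range held 238 and 216 DOX barcodes and the S-high range 199 and 195, against 870 and 669 in the S-low range. The median G2/M sum was 6387 and 6628 CPM untreated and 5076 and 4954 CPM with DOX in S-mid barcodes, and 5399 and 5543 against 4586 and 4418 CPM in S-high barcodes.

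The DOX change itself differed between the S ranges for many members. The interaction term, the log2 fold change in S-high minus that in S-low barcodes, was called above 0 for 17 and below 0 for 6 of 44 replication-dependent genes, and above 0 for all 8 replacement genes (background 18.0% above and 11.2% below of 20092 genes). Above 0 were 8 replication-dependent genes without untreated 1, 11 without DOX 1 and 13 without TMM scaling, and the 8 replacement genes in each of these. The 6 below 0, where the rise was larger in S-low barcodes, were HIST1H2BD (-1.84 ± 0.12 SE), HIST1H2AC (-1.67 ± 0.09 SE), HIST2H2AA3 (-1.02 ± 0.22 SE), HIST1H2BK (-0.83 ± 0.11 SE), HIST1H2BJ (-0.82 ± 0.22 SE) and HIST2H2BE (-0.58 ± 0.19 SE), with adjusted p from 1e-10 to 0.029. Among those above 0 were HIST1H4C (0.74 ± 0.08 SE, adjusted p = 1.5e-06), HIST1H1E (0.73 ± 0.10 SE, adjusted p = 1.6e-05), H2AFX (0.78 ± 0.06 SE, adjusted p = 1e-08) and H1F0 (0.38 ± 0.06 SE, adjusted p = 6.3e-05). HIST1H1C was not called (-0.06 ± 0.06 SE, adjusted p = 0.49). With quartile bounds for the S ranges, the term was called above 0 for 7 and below 0 for 7 replication-dependent genes. Of the replacement genes 6 were then called above 0.

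**Figure D4:**
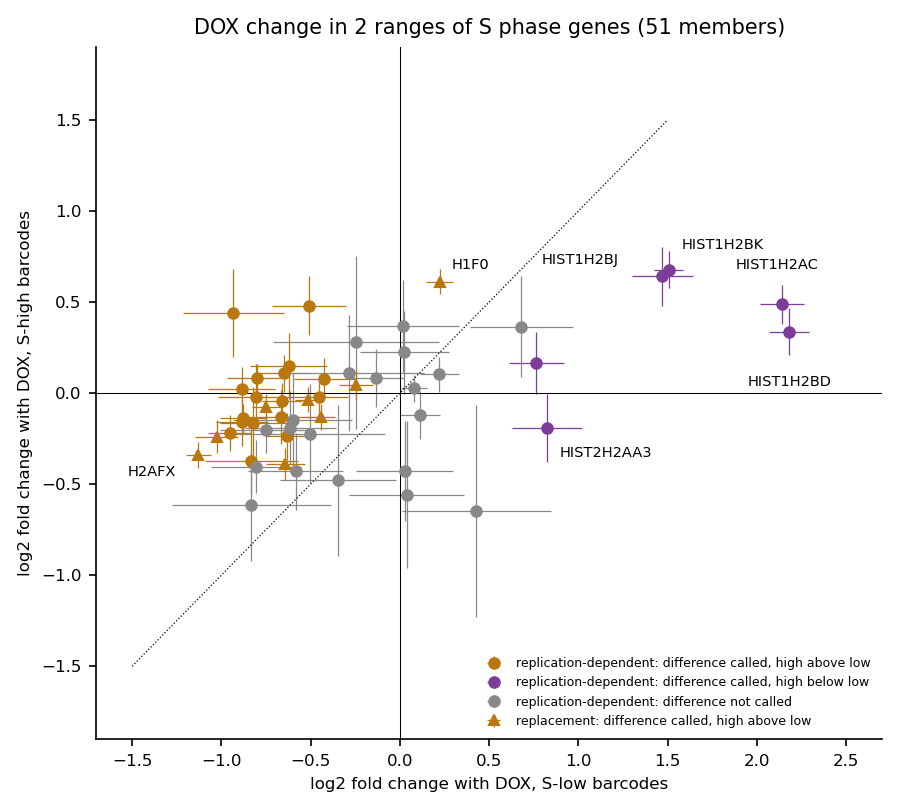
The log2 fold change of DOX against untreated in S-low barcodes (horizontal axis) and in S-high barcodes (vertical axis) for the 51 members tested in both, with bars of 1 SE, circles for replication-dependent and triangles for replacement genes. Purple circles, below the dotted line of equal change, are the 6 genes whose rise was larger in S-low barcodes; orange symbols are the 17 and 8 genes whose interaction term was above 0.

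The rising genes were compared with the GENCODE 44 annotation downstream of the stem-loop, which the membership rule did not use. UMIs had been assigned to genes with another annotation, since 17 of these genes matched by an older symbol only. Where transcripts end in that other annotation was not examined. In GENCODE 44, an annotated transcript reaches at least 100 bases past the stem-loop in 15 of 45 matched replication-dependent genes. Of the genes called higher in all barcodes 3 of 5 (3 of 4 without HIST1H4I) have such a transcript (HIST1H2BD, HIST1H2AC and HIST1H2BJ, which reach 12747, 14432 and 6424 bases past it), of those called lower 4 of 26, and of those not called 8 of 14. In S-low barcodes 5 of the 15 genes with an annotated extension were called higher and 2 lower, with a median log2 fold change of 0.22, where 28.9% of all genes were called higher and 27.8% lower, so the share called higher is near that of all genes. Of the 27 tested genes without one, 1 was called higher and 14 lower, with a median of -0.62. The exception was HIST1H2BK, for which the annotation ends 5 bases past its stem-loop. Members inside these extended transcripts share bases with other annotated genes, among them HIST1H1T and HIST1H4C within HIST1H2BC, so a UMI from such bases cannot be placed with certainty. HIST1H2AC and HIST1H2BD, both of which rose, also overlap another annotated gene on the same strand.

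The letters AATAAA, the common signal for polyadenylation, were found on the sense strand within 5000 bases past the stem-loop of all 45 genes, first at 13 to 4096 bases (median 1083). The median distance was 946 bases for genes called higher, 878 for genes called lower and 1168 for genes not called, and the first match lay 13 bases past the stem-loop in both HIST1H2BD, which rose, and HIST1H1C, which fell. A run of 6 letters is frequent in windows of this length, and the count tables do not say at which end of a transcript a UMI arose, so no RNA end was measured here. By the stem-loop letters, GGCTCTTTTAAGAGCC was held by 3 of the 5 genes called higher (HIST1H2BD, HIST1H2BK and HIST1H2BJ), 2 of the 26 matched genes called lower and 2 of the 14 not called. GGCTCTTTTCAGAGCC was held by 1 gene called higher, HIST1H2AC, by 16 called lower and by 6 not called. These tallies were made after the calls were known and were not tested.

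**Figure D5:**
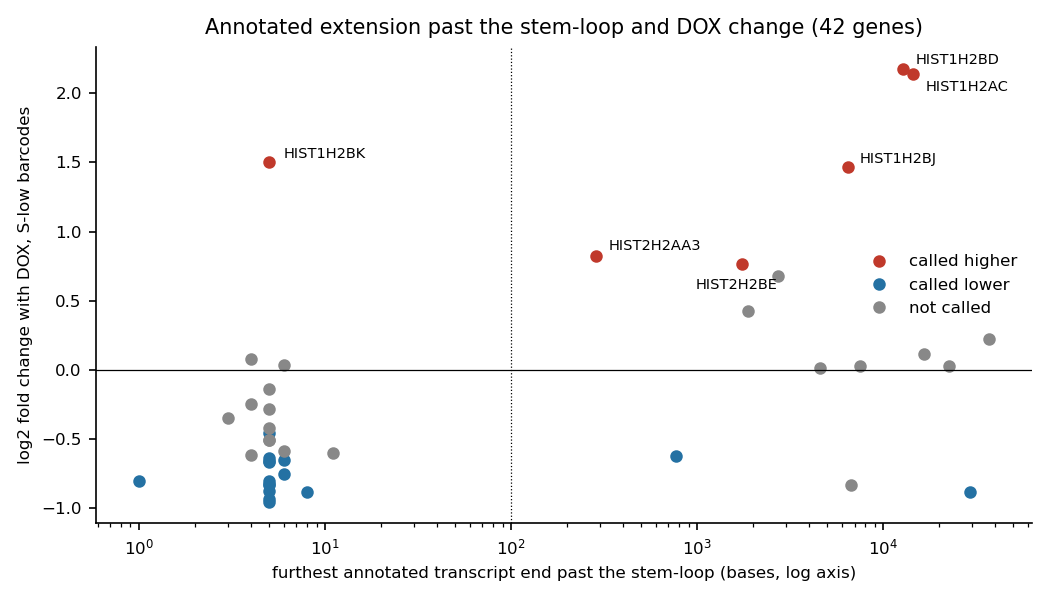
The furthest annotated transcript end past the stem-loop, in bases on a log axis (horizontal), and the log2 fold change with DOX in S-low barcodes (vertical) for 42 replication-dependent genes, coloured by call. Right of the dotted line at 100 bases lie the 15 genes with an annotated extension, 5 of them called higher; HIST1H2BK is the gene called higher on the left.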

How the data were processed

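Polyadenylated RNA of single HCT-116 cells was counted with a 10x 3′ kit in 4 libraries. The authors aligned reads to hg19 with Cell Ranger, forcing 8000 cells in each DOX library but not in the untreated ones (Cell Ranger version 7.2.0 in the file headers, 7.0.0 in the submitters' processing notes), and deposited raw UMI counts per gene and barcode. Whether intronic reads or strand were counted is not given in the sources used here. Bulk samples were not analysed here.

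The members and gene lists were chosen with earlier results of these data known. Barcodes with at least 20000 UMIs and under 8% mitochondrial UMIs were kept without a doublet caller, counts were summed per library, and in S ranges per library and range, and tested with edgeR 4.0.16 (R 4.3.3; filterByExpr, TMM, quasi-likelihood, Benjamini-Hochberg over all genes tested). SE is on the log2 scale. The term S-high against S-low used the library as a block. Genes named by rule were the 8 replacement genes, the 12 replication-dependent genes with most UMIs, the 5 largest rises and 5 largest falls past the threshold, the 4 genes of smallest adjusted p in each other list, CDKN1A and the genes next to the UMI limit; other genes were chosen after their values were seen. The other lists gave, in all barcodes, 4 higher and 2 lower of 8 colon epithelial, 2 higher and 0 lower of 2 leukocyte, and 2 higher and 0 lower of 4 fibroblast and endothelial markers tested. Stem-loops and AATAAA were searched with Python 3.11.15 in GRCh37. The code was tested on simulated data. Alternatives were DESeq2 1.42.0, no TMM, no count filter, other barcode limits, thinned barcodes, a replicate block, quartile bounds for the S ranges, and leaving out each library. Intervals and the limit of a count of 0 cover counting error only.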

Additional observations from a re-analysis of the deposited data

Results flagged for a closer look

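The DOX change differed between S-high and S-low barcodes for 21 of the named members by the edgeR interaction term, which is the log2 fold change in S-high minus that in S-low barcodes. For 4 genes it was below 0, at -1.84 for HIST1H2BD, -1.67 for HIST1H2AC, -0.83 for HIST1H2BK and -0.82 for HIST1H2BJ. Among the replacement genes the term was 0.24 for H3F3B, 0.27 for H3F3A, 0.30 for H2AFY, 0.38 for H1F0, 0.47 for H1FX, 0.66 for H2AFV, 0.77 for H2AFZ and 0.78 for H2AFX. Among the replication-dependent genes it was 0.43 for HIST1H2AG, 0.47 for HIST1H2AM, 0.51 for HIST2H2AC, 0.55 for HIST1H2AK, 0.61 for HIST1H3D, 0.73 for both HIST1H3B and HIST1H1E, 0.74 for HIST1H4C and 0.88 for HIST1H2AH. The S-low range held barcodes of lower S phase and G2/M sums in DOX than in untreated libraries, and the part of that difference in these terms was not tested.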

How the results depend on the processing

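In all barcodes, 387 of 425 values of named genes over 16 alternatives kept their side of the threshold. A turn of sign was counted as a change only where the gene was called in the main or the alternative setting. In S-mid barcodes, chosen after seeing the data, the counts were 8 higher and 0 lower for replication-dependent and 1 lower for replacement genes. Of the named genes called in all barcodes, the log2 fold change turned there for HIST1H1C (0.29), HIST1H1E (0.11), HIST2H2AC (0.57), HIST1H2AH (0.32), HIST1H2AM (0.076), HIST1H3D (0.24), HIST1H3B (0.20), HIST1H2AG (0.37) and HIST1H2AK (0.023). It also turned for HIST1H2BC (0.19) and H3F3A (0.063), which were not called in all barcodes or in S-mid barcodes. In the S-low barcodes also low in G2/M genes, chosen likewise, HIST1H1C turned to -0.57 and the replacement genes called higher were 0. With no limit on barcodes, chosen likewise, 33 replication-dependent genes were lower and 5 higher. With a mitochondrial limit of 20% the counts were 34 lower and 5 higher. The median log2 fold change was then -0.97 for replication-dependent and -0.69 for replacement genes, against -0.52 and -0.43 at 8%. Barcodes with at least 20000 UMIs numbered 3967 and 2310 untreated and 1886 and 1731 DOX. The 8% limit retained 3572 and 2137 untreated and 1307 and 1080 DOX barcodes. In S-low barcodes the replication-dependent genes called higher were 10 without TMM, those called lower 10 with quartile bounds and 11 to 24 leaving out 1 library, and the replacement genes called higher 0 with quartile bounds and 0 to 1 leaving out 1 library. In S-high barcodes the replication-dependent genes called lower were 1 without TMM, 0 with DESeq2, 1 with quartile bounds and 0 to 9 leaving out 1 library, those called higher 2 to 7, and the replacement genes called lower 0 to 3. For S-high against S-low, leaving out 1 library gave 1 to 2 replication-dependent genes lower and 2 to 3 replacement genes higher, which were 2 with quartile bounds. The interaction term was above 0 for 7 replication-dependent genes with quartile bounds and for 8 to 19 leaving out 1 library. With quartile bounds the interaction term was below 0 for 7 replication-dependent genes and above 0 for 6 replacement genes. The causes were not tested. Among all called genes 51.6% were higher, against 72.2% without TMM and 43.7% with DESeq2; in S-low barcodes 51.0% against 70.3% without TMM, and in S-high barcodes 43.7% against 67.3%.

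The labels number replicates alike in both conditions, but the differences between replicates 1 and 2 correlated at 0.0082 between conditions over 21563 genes, so the numbers were not taken as pairs. With the replicate block, 30 replication-dependent genes were lower and 5 higher in all barcodes, 22 and 6 in S-low, and 5 and 5 in S-high barcodes.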
